A study of Mus musculus with 12 samples.

Results

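Mela and A530053G22Rik are 2 transcripts that stood out in macrophages of mice lacking MyD88. They were chosen by their differences between the genotypes on these same arrays, and their members are the probes that carry either name. The rule found 1 probe for each transcript, 2 of the 41174 probes on the array. Mela was bright in all MyD88-null samples and near the detection limit in all C57BL/6 samples, with or without apoA-I. A530053G22Rik was dim everywhere, and was well above background in the MyD88-null controls alone.

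Mela, short for melanoma antigen, was described in a mouse melanoma. Its sequence belongs to an endogenous murine leukaemia provirus, that is, a retrovirus that inserted into the mouse germ line and is inherited like a gene. Laboratory strains differ in which of these proviruses they carry and in how strongly they transcribe them. A530053G22Rik is listed by RefSeq as a long non-coding RNA, an RNA with no known protein product, and its function is not known. MyD88 relays signals from most Toll-like receptors and from receptors of the interleukin-1 family. A mouse line with a targeted gene can keep DNA of the strain whose embryonic stem cells were used, mostly beside the targeted gene, and the labels do not say how far these mice were backcrossed. Loss of MyD88 and strain background therefore cannot be told apart in any difference between the genotypes given here.

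By its title, the series concerns transcripts induced by apoA-I and their dependence on MyD88. Peritoneal macrophages were drawn with thioglycollate from female C57BL/6 or MyD88-null mice aged 10 weeks and collected after 96 h. All cells were loaded overnight with cholesterol at 10 µg/ml and then kept in medium with polymyxin B, which binds bacterial lipopolysaccharide, at 25 µg/ml. Some wells received apoA-I, the chief protein component of HDL particles, at 10 µg/ml for 2 h, and the others, called controls here, did not. Both genotypes were thus measured in both states, which gave 4 groups of 3 arrays. The labels do not say whether the samples of a group came from separate animals or from a pool, so the p-values reflect only how these samples spread, and that spread may be technical.

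The Mela probe lies on the minus strand of chromosome 8, at 122067110 to 122067169 in build mm7, the build of the array files. The A530053G22Rik probe lies on the minus strand of chromosome 6, at 60365797 to 60365856 in the same build. Whether either lies in an exon was not analysed here. The Mela probe has a GC content of 55%, the A530053G22Rik probe one of 35%, and the median probe one of 40%. The longest run of bases that the Mela probe shares with any of the 41173 other probes is 13, on either strand. For A530053G22Rik it is 13 on the same strand and 14 on the opposite strand. RNA of other proviruses with the sequence of the Mela probe would bind to it as well, so the probe does not show which copy was transcribed. The sequence of the A530053G22Rik probe is given because all values of this transcript rest on its 60 bases, printed 5′ to 3′ with no part marked.
A530053G22Rik probe: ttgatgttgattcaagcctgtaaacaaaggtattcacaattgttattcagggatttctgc

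The 75th percentile of processed intensity per array, by which every value was scaled, ran from 199.5 to 1408, and 57.56% to 73.64% of probes were well above background. The lowest correlation between 2 arrays of a group was 0.915. The free descriptions of 2 samples (replicate 2 of the C57BL/6 controls, replicate 2 of the treated null cells) contradict their titles on whether apoA-I was added; the titles were followed. On log2 intensity minus the 75th percentile of the array, C57BL/6 control replicates 1 to 3 read 3.48, 3.49 and 2.96 for the Myd88 probe, against 1.87, 2.10 and 1.40 in MyD88-null controls. With apoA-I it read 4.17, 4.29 and 3.41 against 2.75, 3.25 and 2.43. The null samples were lower in both states and the probe stayed well above background in them, but the labels do not say whether the probe lies in the deleted part of the gene. The difference was -1.52 (SE 0.322) in controls and -1.15 (SE 0.322) with apoA-I, with limma adjusted p = 0.215 and 0.942. With the replicate number as a block these were 0.00397 and 0.0244. The summed log2 level of 7 macrophage markers overlapped between genotypes, at 7.37 to 8.32 in C57BL/6 controls and 7.72 to 8.11 in null controls.

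Mela had intensities of 23.6, 17.3 and 75.9 in C57BL/6 control replicates 1 to 3. Treated C57BL/6 cells read 12.6, 12.3 and 50.4. The MyD88-null controls read 14800, 61200 and 163000, and the null cells with apoA-I 11600, 37100 and 145000. The genotypes did not overlap in either state, as was also true of 10.3% of genes in controls and 5.62% with apoA-I, and no spot was saturated. Within an array, Mela lay between the 98.45 and 99.6 percentile of all probes in null samples, and between 34.76 and 48.96 in C57BL/6 samples.

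On the scaled log2 level, Mela read -3.79, -4.48 and -4.21 for the C57BL/6 control replicates, a mean of -4.16 ± 0.349 (SD, n = 3). Treated C57BL/6 replicates read -4.69, -4.80 and -3.58, a mean of -4.36 ± 0.671 (SD, n = 3). The probe was well above background on 2 of 3 C57BL/6 control arrays and on 1 of 3 with apoA-I, so a weak signal was present in some C57BL/6 samples. Levels in null controls were 5.45, 6.70 and 7.03, a mean of 6.39 ± 0.835 (SD, n = 3). Levels in null cells with apoA-I were 5.86, 6.65 and 7.28, a mean of 6.59 ± 0.711 (SD, n = 3). In both null groups replicate 1 was the lowest. Ordered by mean, the groups ran from C57BL/6 with apoA-I through C57BL/6 control and null control to null with apoA-I. The neighbours at each end of that order overlapped, while the step between the genotypes was wider than any spread within a group.

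**Figure D1:**
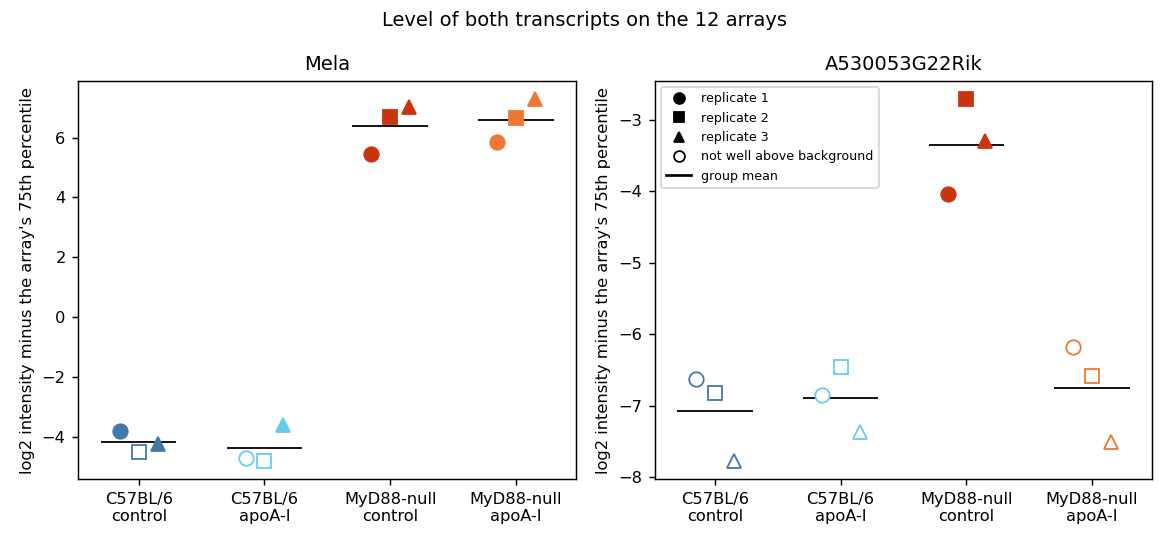
Log2 intensity minus the array's 75th percentile for Mela (left) and A530053G22Rik (right) in each of the 12 samples; symbols give the replicate number, open symbols a spot not well above background, and lines the mean of 3. Mela separates the genotypes in both states, at 5.45 to 7.28 in null samples against -4.80 to -3.58 in C57BL/6 samples, whereas A530053G22Rik is raised in the null controls alone.

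The null-minus-C57BL/6 difference in Mela was 10.55 (SE 0.504) on the log2 scale in controls, 1500-fold. With apoA-I it was 10.95 (SE 0.504). Because 2 C57BL/6 arrays with apoA-I were not well above background, setting those to the lowest signal measured there gives a difference of at least 10.84, or at least 1830-fold. Mela was the most raised of 16745 genes in both states. These values chose the transcript and are a description, without a test. For scale, 0.0179% of genes were called higher in null controls, and again 0.0179% in null cells with apoA-I, at a limma adjusted p under 0.05 (3 genes each time). The differences within replicate numbers 1, 2 and 3 were 9.24, 11.18 and 11.25 among controls. Among treated cells they were 10.55, 11.44 and 10.86. Samples that shared a slide differed by 9.24 in controls on slide 1, and by 11.44 and 10.86 with apoA-I on slides 2 and 5. When the background was corrected with normexp, which adds an offset of 50 to every spot, the differences were 8.80 in controls and 8.72 with apoA-I. Without the 2 samples whose descriptions contradict their titles they were 10.39 and 10.92.

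**Figure D2:**
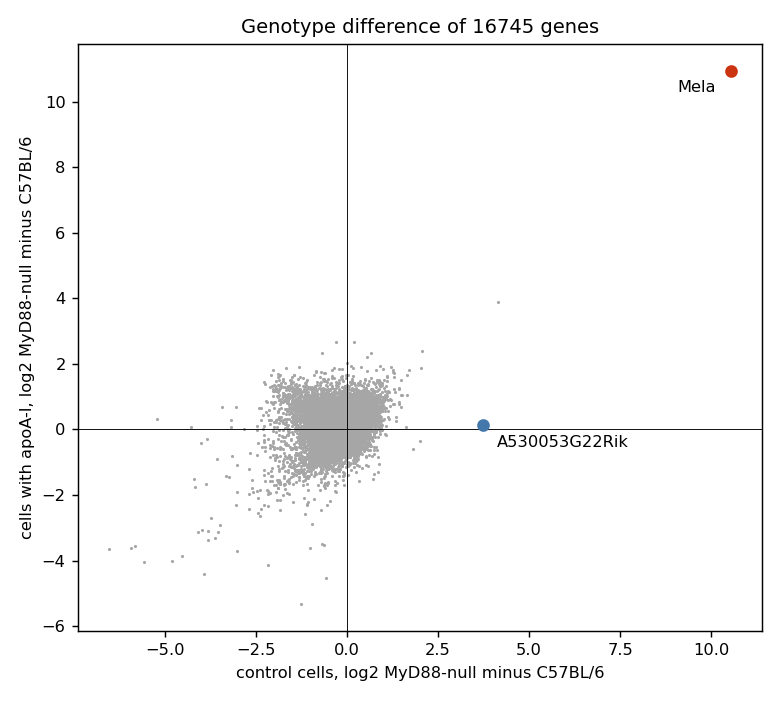
Difference between MyD88-null and C57BL/6 cells for each of 16745 genes, in controls (horizontal) and with apoA-I (vertical), both as log2. Mela lies at 10.55 and 10.95, whereas A530053G22Rik lies at 3.73 in controls and 0.13 with apoA-I.

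ApoA-I made no detectable difference to Mela in either genotype. In C57BL/6 cells the log2 difference from control was -0.19 (95% interval -1.32 to 0.93), and the limma adjusted p was 1. In MyD88-null cells it was 0.20 (95% interval -0.92 to 1.32), with a limma adjusted p of 0.928. In each genotype the treated and control samples overlapped, whereas 13.1% of genes in C57BL/6 and 11.6% in MyD88-null cells had no overlap. For comparison, 0.83% of genes passed in C57BL/6 cells and 1.14% in MyD88-null cells. The responses of the genotypes differed by 0.40 (95% interval -1.19 to 1.98; limma adjusted p = 1), and 0% of genes passed this test, in which 196 genes had an unadjusted p under 0.05. The intervals reach to 1.32 in MyD88-null cells, so smaller changes could not be seen. The sign of these small differences changed with the processing.

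A530053G22Rik had intensities of 20.5, 90.3 and 126 in MyD88-null control replicates 1 to 3. Treated null cells read 2.75, 3.84 and 5.13. The C57BL/6 samples read 3.30, 3.41 and 6.39 without apoA-I and 2.81, 3.87 and 3.65 with it. All 3 null controls were above all other samples, and the remaining 9 samples overlapped. The probe was well above background in the 3 null controls and in none of the other 9 samples. Before any correction, the mean spot signal exceeded the local background by 42.6, 112 and 159 in null controls, and by 7.81 to 34.4 in the other samples. The separation was thus seen in the raw signal too, but there it was narrow for null control replicate 1.

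The scaled log2 level of A530053G22Rik was -4.04, -2.71 and -3.30 in null controls, a mean of -3.35 ± 0.667 (SD, n = 3). Its mean was -7.08 ± 0.617 in C57BL/6 controls, -6.89 ± 0.459 in C57BL/6 cells with apoA-I and -6.76 ± 0.681 in null cells with apoA-I (SD, n = 3 each). These 3 means come from spots not well above background and have no order among themselves. In null controls the transcript lay between the 40.28 and 57.02 percentile of all probes, so it was of middling brightness where it was detected.

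The null-minus-C57BL/6 difference in A530053G22Rik was 3.73 (SE 0.467) in controls, the third largest of 16745 genes. It was 0.13 (SE 0.467) with apoA-I, where neither group was above background. The first value chose the transcript and carries no test. Since the C57BL/6 controls have only a bound, the null controls were at least 2.89-fold higher. The next gene below it, Pnoc, differed by 2.07. For scale, 0.0179% of genes, 3 in all, were called higher in null controls. The control difference in A530053G22Rik was 3.85 without the 2 samples of contradictory description, but only 0.95 with normexp. It was 3.38 to 4.07 when 1 array was left out. Within replicate numbers the control difference was 2.59, 4.12 and 4.48, and on the slide with both groups it was 2.59. Raised in the null mice therefore describes A530053G22Rik in control cells, and no rise was seen in cells with apoA-I.

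In MyD88-null cells the apoA-I-minus-control difference in A530053G22Rik was -3.41 on the log2 scale (SE 0.467). The probe was kept only through the null controls, whose high values also chose it, and the treated cells were not above background, so this is a description without a test. It was lower with apoA-I in all 3 replicate pairs, by differences of -2.14, -3.88 and -4.21. On slides 3 and 5, which each held null samples of both states, the differences were -3.47 and -4.21. For scale, 0.0119% of genes, 2 in all, were called lower in this comparison. As a bound, the null controls were at least 2.38-fold higher than the treated null cells. It uses the same null controls as the genotype difference and is no independent support for it. With normexp background correction the difference was -0.67 (SE 0.530). The genotype difference in controls was 0.95 under that correction. Without the 2 samples of contradictory description the differences were -3.49 and 3.85.

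In C57BL/6 cells the apoA-I difference in A530053G22Rik was 0.19, between groups that were both not well above background, so it has no direction. The responses of the genotypes differed by -3.60 (SE 0.661), with a limma adjusted p of 0.5 (0.183 with the replicate block), so a difference in response between the genotypes did not pass the test.

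**Figure D3:**
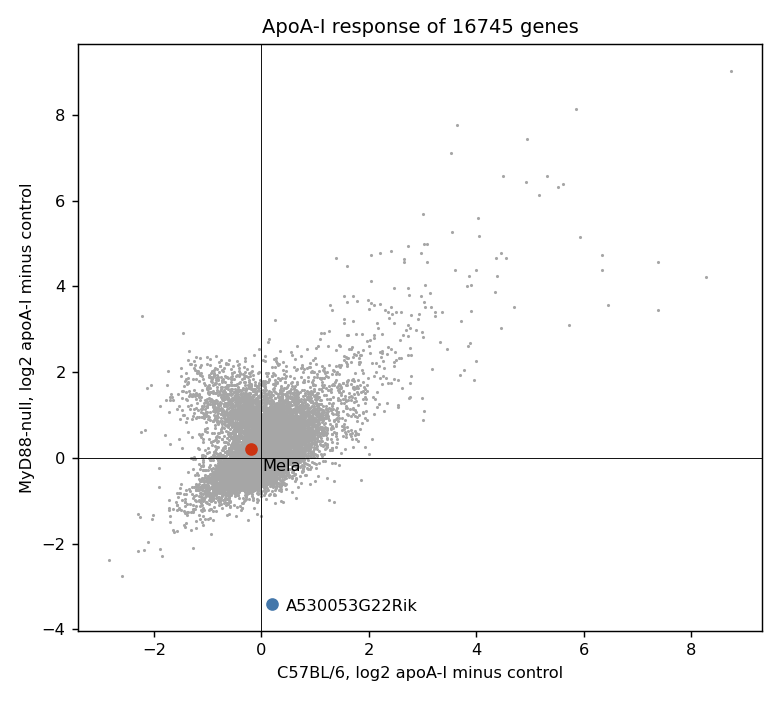
Response to apoA-I of each of 16745 genes in C57BL/6 cells (horizontal) and MyD88-null cells (vertical), as log2 apoA-I minus control. Mela lies near the origin at -0.19 and 0.20, and A530053G22Rik lies at 0.19 and -3.41, where only the null controls were above background.

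Of all 41174 probes, A530053G22Rik was the single one well above background on the 3 MyD88-null controls and on no other array. The matching count was 0 for C57BL/6 controls, 4 for C57BL/6 cells with apoA-I and 6 for null cells with apoA-I. No probe was above background on all 6 null arrays and no C57BL/6 array, since Mela itself passed on 3 C57BL/6 arrays. In the opposite direction, a dim probe of Myo6, an unconventional myosin, and a probe of Lcn2, the iron-binding protein lipocalin-2, were above background on all 6 C57BL/6 arrays and no null array. That Myo6 probe differed by only -0.89 in controls and -0.62 with apoA-I. A brighter Myo6 probe was well above background on all 12 arrays and differed by -0.50 and -0.68, so Myo6 was detected in null cells too. The Lcn2 mean was -3.69 in C57BL/6 controls and -6.70 in null controls.

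The genes around both transcripts did not share their pattern. Of 49 genes with a probe within 1 Mb of Mela, 0 were called between genotypes by limma in either state, also with the replicate block, against 0.0956% of all genes called in controls and 0.0657% with apoA-I without the block and 0.591% and 0.227% with it. Their log2 differences had a median of 0.02 in controls and 0.13 with apoA-I, beside 0.021 and 0.074 for all genes. They ran from -0.50 to 0.55 in controls and from -0.50 to 1.38 with apoA-I. The nearest probe, at -4.24 kb (towards lower coordinates), belongs to Tubb3, which encodes a neuronal beta-tubulin, and differed by 0.32 in controls and -0.18 with apoA-I. Mc1r, the melanocortin receptor that governs coat colour, lies at -17.5 kb on the same side and differed by -0.48 and 0.88. Tcf25 at -24.8 kb differed by 0.06 and 0.20, and Def8 at 37 kb by 0.02 and 0.27. The value of 1.38 belonged to Dbndd1, at 79 kb, which differed by -0.47 in controls. None of these neighbours passed the test.

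The other genes in that window on the side of Tubb3 were Cyba, Mvd, 9330133O14Rik, Rnf166, Ctu2, BC039210, Cdt1, Aprt, Galns, Trappc2l, Cbfa2t3, BC021611, Cdh15, Ankrd11, 2810013P06Rik, Spg7, Ryk, Rpl13, Cpne7, Sult5a1, Dpep1, Chmp1a, Spata33, Cdk10, Spata2l, Vps9d1, Fanca, Zfp276, TC1454836 and Spire2. On the side of Def8 they were Afg3l1, AK084859, Gas8, Rhou, Rab4a, Ccsap, Acta1, Nup133, Abcb10, TC1504814, Taf5l, Urb2, Galnt2 and Pgbd5. They include the housekeeping gene Rpl13, which encodes a ribosomal protein, and also Cyba, which encodes a subunit of the phagocyte NADPH oxidase. The differences of all these genes lay within the range above. Within 5 Mb of Mela there were 112 genes, of which 0 were called between genotypes.

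Within 1 Mb of A530053G22Rik lies Ccser1, at 916 kb, which differed between genotypes by 0.52 in controls and 0.94 with apoA-I. It did not pass the test, and of the 28 genes within 5 Mb 0 were called.

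Myd88 itself marks the targeted locus on chromosome 9. Of 124 genes within 10 Mb of its probe, 0 were called between genotypes in either state, with medians of -0.03 in controls and 0.06 with apoA-I. In the same fit 0.0776% of all genes were called lower in controls and 0.0478% with apoA-I. With the replicate block, under which 0.526% of all genes were called lower in controls and 0.185% with apoA-I, 2 of the 124 were called lower in both states: Limd1, an adaptor protein with LIM domains, and 0610042G04Rik. Limd1 differed by -1.20 in controls and -1.56 with apoA-I, with blocked limma adjusted p = 0.0318 and 0.0198. 0610042G04Rik differed by -2.06 and -1.57, with blocked limma adjusted p = 0.00479 and 0.0304. Without the block its limma adjusted p in controls was 0.0516, and 0.0198 when null apoA-I replicate 3 was left out. A second Limd1 probe differed by -0.94 and -0.87. Next after these by p came Tgfbr2, a TGF-beta receptor subunit, at 0.91 in controls, and Tgm4 at 1.20 with apoA-I.

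**Figure D4:**
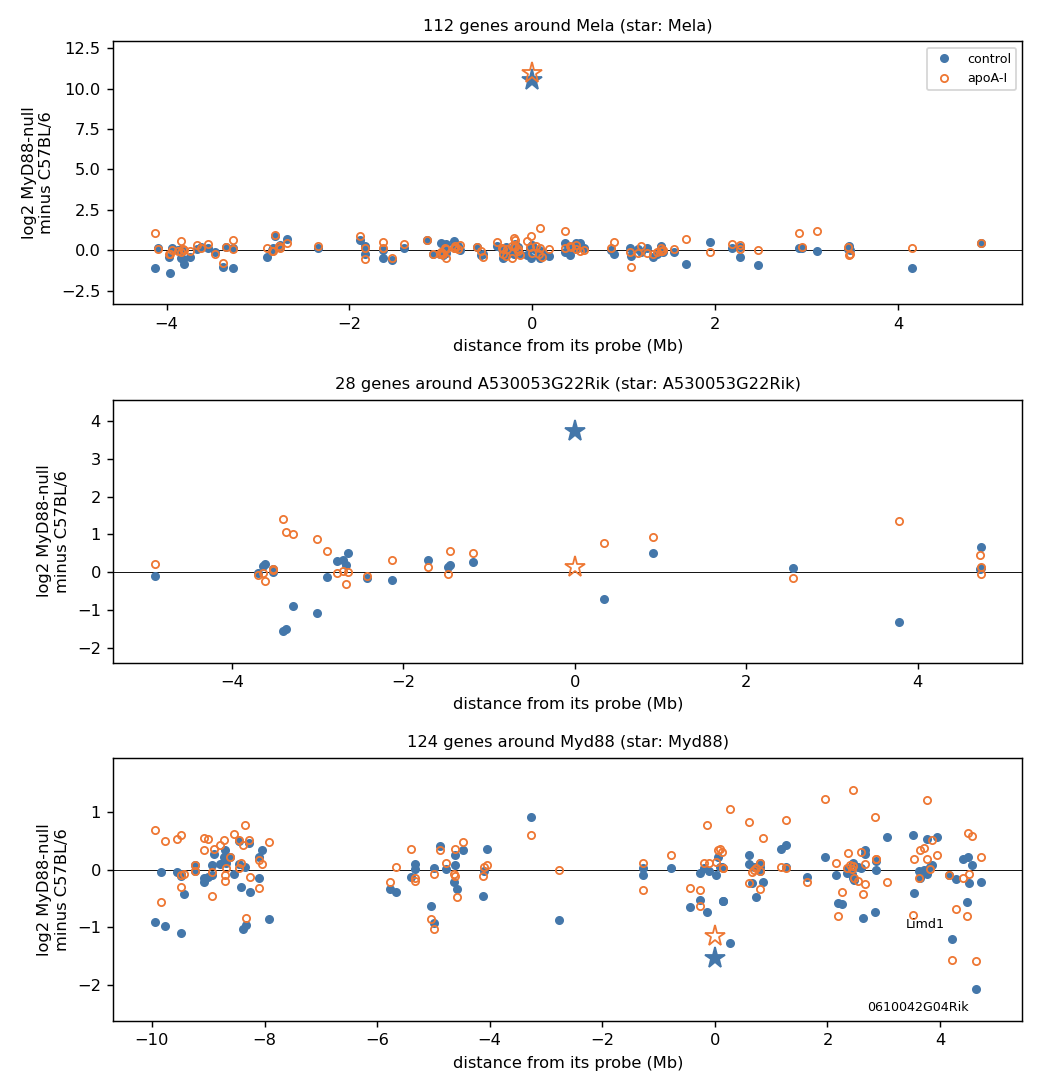
Log2 difference between MyD88-null and C57BL/6 cells against the distance in Mb from the probe of Mela (top), A530053G22Rik (middle) and Myd88 (bottom), filled for controls and open for apoA-I; stars mark the named gene. Mela stands at 10.55 and 10.95 while the 112 genes around it lie between -1.38 and 1.38, and Limd1 and 0610042G04Rik are the labelled low genes on the Myd88 side.

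Genes whose level followed that of Mela over the 12 arrays included Ramp1 (Pearson r = 0.936), a subunit of neuropeptide receptors, Clic5 (r = 0.9), Rptoros (r = 0.899) and the histone gene H2ac18 (r = 0.897). Their differences between genotypes in controls were much smaller than that of Mela, at 0.99, 1.03, 1.02 and 0.55, and none was called. Over arrays that fall into 2 genotypes with shared processing, such an r mainly records the gap between the genotypes, and it is a description over 12 arrays.

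The genes most like A530053G22Rik over the 12 arrays were Gprc5b (r = 0.843), Lrrc39 (r = 0.839), Wdr38 (r = 0.836), Mpdu1 (r = 0.826) and 9430038I01Rik (r = 0.825). Their null-minus-C57BL/6 differences in controls ran from 0.27 for Mpdu1 to 1.34 for Lrrc39, and none of the 5 was called. No gene reached an r above 0.9 with A530053G22Rik. Since 9 of its 12 values lie below background, r here rests on the 3 null controls.

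Markers of B cells, and the sum of mast cell markers, ran opposite to Mela, lower in null cells. No marker of either type was called. All 6 measured B cell markers were lower in null cells in both states, with medians of -0.60 and -0.61. Their summed log2 level was 2.93 to 3.18 in C57BL/6 controls and 2.19 to 2.41 in null controls, and 2.99 to 3.11 and 2.07 to 2.90 with apoA-I. The sum of 5 mast cell markers was 0.83 to 1.29 in C57BL/6 and 0.25 to 0.77 in null controls, and 0.99 to 1.33 and 0.44 to 0.79 with apoA-I. Not all mast cell markers went that way: 1 of 5 was higher in null controls and 2 of 5 with apoA-I. These were Kit, by 0.17 and 0.10, and Fcer1a, by 0.31 with apoA-I alone. The sums of T cell, neutrophil, eosinophil, dendritic cell and mesothelial markers overlapped between genotypes in both states. In bulk RNA fewer cells of a type and less RNA per cell cannot be told apart, and the part of these cells in the Mela difference was not tested.

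No measured gene of the lists in this paragraph, which concern retroviruses, was called between the genotypes. Of all genes, only 0.0956% were called in controls and 0.0657% with apoA-I. A count of 0 in lists of this size therefore says little about these genes in particular. None of the 4 receptors through which murine leukaemia viruses enter cells was called: Slc7a1, the arginine transporter used by ecotropic viruses, differed by -0.05 in controls and -0.67 with apoA-I, Xpr1 by 0.34 and 0.31, Slc20a1 by -0.08 and -0.44, and Slc20a2 by -0.08 and -0.04. Of 18 genes for restriction of retroviruses or sensing of nucleic acids, 0 were called between genotypes, with medians of 0.03 and 0.11. Among them were Fv1, which blocks incoming murine leukaemia virus (-0.53 and -0.13), the cytidine deaminase Apobec3 (0.55 and 0.51), Cgas, a sensor of cytosolic DNA (0.15 and 1.20), Trim30a (-0.38 and 0.12) and Unc93b1, a chaperone of nucleic acid-sensing Toll-like receptors (0.24 and 0.09). Of 27 genes that silence retroelements, 0 were called, with medians of 0.10 and 0.12. These included the corepressor Trim28 (-0.08 and -0.12), the histone methyltransferase Setdb1 (0.38 and 0.07), the DNA methyltransferase Dnmt1 (0.42 and 0.59), its partner Uhrf1 (-0.71 and 0.15), the heterochromatin protein Cbx5 (-0.52 and 0.55), Resf1 (0.27 and 0.64) and Zfp809, a zinc finger protein that recruits silencing to murine leukaemia virus (-0.02 and 0.12). Of 7 genes that descend from retroelements, 2 were measured, Arc (-0.31 and 0.28) and Asprv1 (-0.14 and 0.23), and 0 were called.

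Some of these genes responded to apoA-I, which Mela did not detectably do. Ifih1, a sensor of double-stranded RNA, rose by 2.50 (SE 0.375) in C57BL/6 and 3.41 (SE 0.375) in MyD88-null cells, with limma adjusted p = 0.0118 and 0.000915. Trex1, a DNA exonuclease that degrades DNA copies of retroelements, rose by 3.03 and 3.63, with limma adjusted p = 0.0344 and 0.00863. These were 2 of the 18 genes in each genotype, where 0.812% and 1.13% of all genes were called higher. Of the silencing genes 1 of 27, Daxx, rose in MyD88-null cells, by 1.06 (limma adjusted p = 0.0468), and 0 of 27 passed in C57BL/6 cells. Without the 2 samples of contradictory description Ifih1 still passed in null cells (limma adjusted p = 0.0151), while Ifih1 in C57BL/6 cells (0.114), Trex1 (0.241 and 0.0954) and Daxx (0.295) did not. With single arrays left out, the C57BL/6 call of Trex1 was lost in 8 of 12 fits (without C57BL/6 control replicate 2 or 3, C57BL/6 apoA-I replicate 1 or 2, any null control or null apoA-I replicate 1), with limma adjusted p up to 0.201. The call of Daxx in null cells was lost in 10 of 12, all but those without C57BL/6 apoA-I replicate 1 or null apoA-I replicate 3, with limma adjusted p up to 0.196. The C57BL/6 call of Ifih1 was lost without control replicate 2, apoA-I replicate 2 or apoA-I replicate 3 of that genotype (limma adjusted p = 0.0752, 0.0775 and 0.0515). With the replicate block all these calls held. In C57BL/6 and null cells the limma adjusted p was then 0.00536 and 0.00068 for Ifih1, and 0.00473 and 0.00123 for Trex1. For Daxx in null cells it was 0.0252.

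A search of the probe descriptions for retroviruses found 25 further probes, of which 18 were kept and 0 were called in any comparison, against 0.0575% of 24351 probes in controls and 0.0493% with apoA-I between genotypes. Their medians were 0.07 and -0.09. Most of the named ones are host genes called after a virus, such as Pim1, a kinase first found at proviral insertion sites, Tax1bp1 and Xpr1, so they do not stand for other proviruses.

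Of 15 genes known to differ between laboratory strains, 10 were measured and 1 was called lower in controls, against 0.0776% of all genes. This was Casp4, the inflammatory caspase that senses lipopolysaccharide and is defective in strains of a family often used for embryonic stem cells, which was lower in null controls by 1.18 (SE 0.171; limma adjusted p = 0.0472). With apoA-I it differed by -0.31 and did not pass. Casp4 lies on chromosome 9, as Myd88 does, but far from it. Its probe starts at 5253886, whereas that of Limd1, within 10 Mb of Myd88, starts at 123236648. Casp4 also responded to apoA-I, rising by 0.96 in C57BL/6 and 1.82 in MyD88-null cells. Its call in controls held with the replicate block (limma adjusted p = 0.0117). It was lost on leaving out any of the 12 arrays, with limma adjusted p from 0.0515 to 0.25. It was also lost without the 2 samples of contradictory description (0.404), with normexp (0.089), with median scaling (0.944), with no filter on dim probes (0.231) and with every probe on its own (0.0562). Nnt, which is disrupted in a C57BL/6 substrain, differed by 0.17 in both states.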

How the data were processed

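Cy3-labelled RNA (500 ng a sample) was hybridised to 12 one-colour Agilent arrays. The deposited scanner files hold spot intensity made with Agilent Feature Extraction. Its version was 9.5 in the submitters' processing notes, while per the file headers it was 9.5.1.1 or 9.5.3.1. The processed intensity is background-corrected and detrended, and dim spots keep small positive values. The deposited value table follows log10 intensity (r = 0.9926 to 0.9997 a column, column medians 1.822 to 1.868). Its scaling, centring and normalization are not given in the sources used here, so it served as an alternative. The column medians were 1.8435, 1.8408 and 1.8283 for C57BL/6 controls, 1.8402, 1.841 and 1.8346 for C57BL/6 with apoA-I, 1.8386, 1.8676 and 1.8435 for null controls, and 1.8333, 1.846 and 1.8225 for null cells with apoA-I.

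Log2 values came from the deposited intensities, less the 75th percentile of each array, with outlier spots left out. Of 41174 probes, 24351 were well above background on all arrays of a group, and the brightest probe per gene gave 16745 genes. Names came from RefSeq (GRCm38.p6) where matched; Mela kept the name in the file, and A530053G22Rik matched by symbol. limma 3.58.1 in R 4.3.3 (jsonlite 2.0.0, data.table version 1.17.8; matplotlib 3.10.9 for plots) fitted the 4 group means to all 12 arrays, with 8 residual and 2.16 prior degrees of freedom, two-sided p-values and Benjamini-Hochberg adjustment at 0.05; the fit was checked on simulated data. Their number limits the precision. A spot not well above background has only a bound, so folds there are at least the stated number, taken against the lowest signal well above background on each array.

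The deviations of same-numbered samples from their group means correlated by 0.296 to 0.859 in all 18 pairs, so the replicate number was taken to pair samples; the labels do not say what it marks. Genes named were both members, Myd88, list genes that passed or else up to 3 of smallest p, genes within 1 Mb of a member, and the 5 most alike genes; Fv1, Trim28, Setdb1, Zfp809, Nnt, Lcn2, Myo6, Pim1, Pnoc and Tax1bp1 were named after their values were seen, and some genes this rule names are not reported here. The planned test of the apoA-I difference in A530053G22Rik within null cells is not reported, since the null controls that chose the transcript carry it. The members and lists were chosen with earlier results of these data known. Alternatives were other background corrections, scalings, filters, blocks (replicate number, slide, scan day), each array left out, and both samples with contradictory descriptions left out.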

Additional observations from a re-analysis of the deposited data

How the results depend on the processing

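The large Mela difference between genotypes kept its direction in every alternative that tested it, at 10.23 to 11.03 in controls and 10.61 to 11.34 with apoA-I over the 12 fits that each left out 1 array. With normexp background correction, which adds an offset of 50 to every spot, it was 8.80 and 8.72, and A530053G22Rik differed by 0.95 between control genotypes and by -0.67 with apoA-I in null cells. The latter difference was -3.76 to -3.03 when an array was left out. Requiring every probe to be well above background on all 12 arrays removes both transcripts, so it gave no value for them.

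The small apoA-I differences changed sign. For Mela in C57BL/6 cells they were 0.22 with normexp and -0.58 to 0.03 with 1 array left out. In null cells they were -0.25 with median scaling, which moved the median of all genes to -0.4, and -0.27 to 0.57 with 1 array left out. The interaction was -0.09 with normexp and -0.08 to 0.78 with 1 array left out. For A530053G22Rik in C57BL/6 cells they were -0.16 to 0.43 with 1 array left out. None passed.

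Counts of genes called by limma moved more, from 139 and 191 for apoA-I in C57BL/6 and null cells and from 16 and 11 between genotypes in controls and with apoA-I. The replicate block gave 570, 682, 99 and 38, slide as a random block 755, 659, 68 and 44 (and 2 for the interaction, from 0), and scan day as a term 323 and 357 for apoA-I and 17 between genotypes with apoA-I. Median scaling gave 80 and 83 for apoA-I, and no filter gave 83 in C57BL/6 cells. Normexp gave 9 between control genotypes, and requiring all 12 arrays gave 3 with apoA-I. Without the 2 samples with contradictory descriptions the 4 counts were 53, 106, 2 and 6. With 1 array left out they were 64 to 156, 124 to 180, 5 to 15 and 8 to 16. The first fell most without C57BL/6 control replicates 2 (68) and 3 (82) and C57BL/6 apoA-I replicate 2 (64). The second fell most without null control replicates 1 (124) and 2 (127). The third fell without C57BL/6 control replicates 1 (7), 2 (8) and 3 (5) and null control replicates 1 (9) and 3 (7). The block also added the 2 genes near Myd88 in each state, and under it Mela still passed no apoA-I comparison. The causes of these moves were not tested. Dim signal limits A530053G22Rik, which had only a bound in 9 of 12 samples.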

Other observations

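Among genes with the pattern most opposite to Mela over the 12 arrays were 2 B cell genes and 1 gene of chromosome 9. Iglv1, an immunoglobulin light chain segment, had r = -0.945 with Mela, Ms4a1, which encodes the B cell antigen CD20, r = -0.928, and Limd1 r = -0.923. Iglv1 was lower in null cells by differences of -1.21 in controls and -1.07 with apoA-I, and Ms4a1 by -0.95 and -0.78; none was called without the replicate block, and with it Iglv1 passed in controls (limma adjusted p = 0.0296). The genes most opposite to A530053G22Rik were Ralgds (r = -0.9), Trib3 (r = -0.888) and Pdgfb (r = -0.875). Ralgds, an exchange factor for Ral GTPases, was called lower in null controls, at -1.92 (SE 0.159; limma adjusted p = 0.002), and differed by -0.56 with apoA-I.

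Genes called between genotypes in both states included Csf3, Il1b and Nfkbiz. The colony-stimulating factor Csf3, the cytokine Il1b and the inhibitor-like regulator Nfkbiz were lower in null cells.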
